A study of Mus musculus with 96 samples.

Results

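The 54 protein-coding genes of the mouse whose symbols start with Snrp, Snrnp, Lsm, Sf3a, Sf3b or Prpf encode most of the core proteins of the spliceosome, and their transcripts were followed from the unfertilized oocyte to the morula. They were taken from 55401 gene rows of the deposited table by symbol in the GENCODE M21 annotation; the rule itself uses no measured value. Of the 59 symbols with these prefixes, 5 were left out: Snrpn, 3 processed pseudogenes (Snrpert, Snrp1c-ps1 and Snrp1c-ps2) and Lsmem2, which the annotation lists as a long noncoding RNA. By role the genes comprised 7 of the Sm ring, 6 of the U1 particle, 11 of the U2 particle, 12 of the U4/U6 and U5 particles, 1 of the Prp19 complex, 3 of the minor spliceosome, 8 of the LSm rings, 2 of the U7 particle and 4 others with an Lsm name. Lsmem1 of the last 4 shares the prefix only, since it encodes a membrane protein.

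Each of the 96 libraries was made from the poly(A) RNA of a single oocyte or embryo, untreated and of the C57BL/6J strain. Females were superovulated with PMSG and, 46 h later, hCG, and were paired with C57BL/6J males. Collection began 12 h after hCG, and embryos freed of cumulus cells with hyaluronidase in M2 medium were cultured in KSOM. The groups were 8 oocytes, embryos at 0 h (5), 2 h (5), 4 h (2), 6 h (3), 8 h (5), 10 h (5), 12 h (5), 14 h (5), 16 h (8), 18 h (9), 20 h (5), 22 h (10), 24 h (6) and 36 h (8) after fertilization, and 7 morulae. The 36 h embryos are late 2-cell embryos. Oocytes and morulae were processed in other batches than the 0 h to 36 h embryos, so that in comparisons with them stage and batch cannot be told apart.

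Spliceosomes remove introns from transcripts in the nucleus. They assemble from small nuclear RNAs, each carried by a ring of Sm proteins (B, D1, D2, D3, E, F and G) or, for U6, a ring of LSm proteins, together with proteins of its own. U1 marks the start of the intron, U2 with the SF3a and SF3b complexes holds the branch point, and the U4/U6 and U5 particles complete the catalytic machine. A second LSm ring, with Lsm1 in place of Lsm8, sits in the cytoplasm and promotes the removal of the cap from messenger RNA, so that Lsm2 to Lsm7 serve both splicing and mRNA decay. The fully grown oocyte and the early zygote transcribe little and live on stored RNA; in the mouse the major wave of transcription from the embryo's own genome comes at the 2-cell stage. Stored transcripts can gain or lose poly(A) tail, and because the libraries were primed on poly(A), tail length and abundance cannot be told apart here, nor can fewer cells and less RNA per cell.

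Total counts over genes ran between 10378 and 6795311 per library, with a median of 2099222. The lowest, morula replicate 4, held 83 counts of these genes and detected 27 of 54, whereas the other morulae held 9374 to 33460 such counts and detected 51 or 52; the morula results are therefore given with and without it. One 10 h library, replicate 5, goes against its label: its 18 cumulus and granulosa markers summed to 9042 CPM against a 10 h median of 159, and its 8 oocyte markers to 18.5 CPM against a median of 17813. It enters none of the 7 comparisons, each fitted on its 2 groups alone, but it is in the single fits of 81 or 96 libraries given as alternatives. The 10 h levels are given as medians. The same markers summed to 1403 CPM in 12 h replicate 5 (12 h median 227) and to 1087 CPM in 36 h replicate 3 (36 h median 40.5), and blood and oviduct markers to 2317 CPM in 0 h replicate 1 (0 h median 38.3). Without these libraries in turn 21 genes were called for 12 h against 0 h (18 with it), 27 for 36 h against 24 h (25 with it) and 23 for 0 h against oocytes (24 with it). Over all genes the counts were 3416, 6251 and 4231, in place of 3206, 6607 and 4371. For 24 h against 12 h, 9 members were called without 12 h replicate 5 (12 with it), and 2208 of all genes in place of 2397. The oocyte markers, all 8 with counts, summed to medians of 12150 CPM in oocytes, 21486 at 0 h, 4799 at 24 h, 1304 at 36 h and 76.99 in morulae. Two-cell markers had a median sum of 2187 CPM at 36 h, against 239 at 24 h. Morula markers summed to a median of 381 CPM in morulae and 173 at 36 h, with Sox2 at 0 in every morula. Levels below are TMM-scaled CPM (counts per gene scaled to a common library total over all genes). Changes are log2 ratios with standard errors (SE) from edgeR's quasi-likelihood test over all genes, with Benjamini-Hochberg adjusted p and a threshold of 0.05; p-values measure the spread between single embryos.

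Summed, transcripts of the 54 genes made up a median of 5639 CPM in oocytes, 5856 at 0 h, 5055 at 24 h (range 4325 to 6701), 3241 at 36 h (2123 to 4474) and 6803 in morulae (3060 to 9473). The low point of this sum was thus the late 2-cell embryo. A sum is weighted to abundant genes, such as Sf3b1 and Snrpb2, which fell. Gene by gene, 12 of 50 tested were higher at 36 h than at 24 h and 13 lower, beside 29.1% and 23.2% of all genes tested. By group median, 22 of 54 genes were at their highest in morulae and 13 at their lowest at 36 h, the largest counts for either among the 16 groups. Morulae were also the lowest group for 9 genes. The same counts were not made over all genes, so no background stands beside them. Per kb of exon the most abundant in oocytes were Snrnp27, a protein of the U4/U6.U5 particle, with a median of 253 CPM per kb, and Snrpe of the Sm ring with 248. At the other end, Snrnp35 and Prpf40b had medians of 0 and 0.139 CPM per kb, and neither passed the low-count filter in any of the 7 comparisons with all libraries. Snrpe is uncertain throughout: the pseudogene Snrpert matches it in 276 of 279 aligned bases (98.9%) and had medians of 184 CPM at 0 h and 338 CPM in morulae, so that reads may be divided between the pair. The libraries do not keep strand, and exons of Snrpa, Snrpd3, Snrpf, Prpf31, Prpf39, Prpf4b, Sf3a2, Sf3b2, Sf3b3, Sf3b4, Lsm14a and Lsmem1 overlap a gene on the other strand, whose reads cannot be told apart from theirs. On their own strand, Lsm3 overlaps AC161456.1, Snrpa1 overlaps Gm45213, and Sf3b3 overlaps Snord111 and Gm22193, so that the authors' counting could split their reads. Lsm4, Lsm5, Lsm6, Snrnp70, Snrpc, Snrnp25, Snrpd2, Snrpb, Snrpb2 and Sf3b1, on which much of what follows turns, have no overlapping exons. Reads shared with loci elsewhere are not covered by this. Of the non-zero values of Snrpb2, 40.6% were not whole, against at most 15.8% (Snrnp70) for the others just named, and the reason was not tested.

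**Figure D1:**
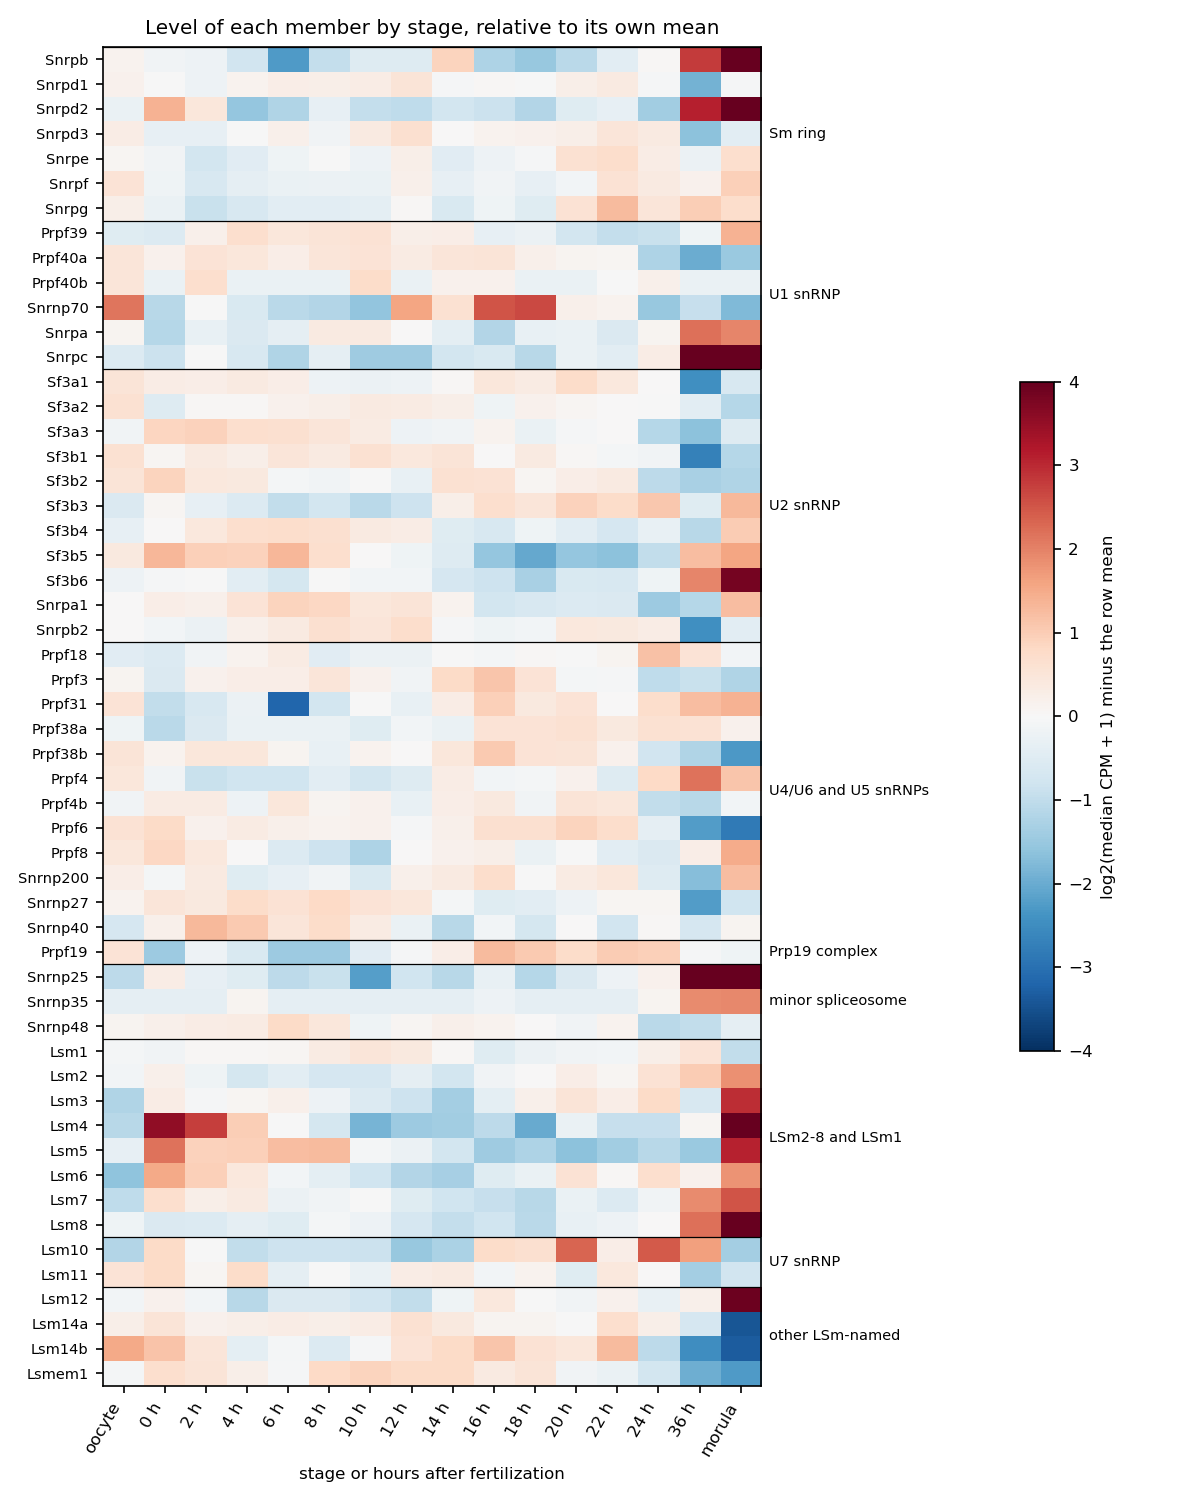
Rows are the 54 genes grouped by role and columns the 16 groups in order of stage; colour is log2(median CPM + 1) minus the mean of that row, clipped at 4 in either direction. Lsm4 and Lsm6 stand out at 0 h and 2 h and again in morulae, and Lsm5 at 0 h and in morulae. Sf3b1, Snrpb2 and Sf3a1 of the U2 particle are lowest at 36 h.

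The first comparison set 0 h embryos against oocytes. Transcripts of 5 of the 8 LSm ring genes were more abundant at 0 h, led by Lsm4, Lsm6 and Lsm5, while those of 2 U1 proteins, Snrnp70 and Snrpa, were less abundant. Of the 54 genes, 49 passed the filter on low counts; 14 were higher at 0 h and 10 lower, beside 23.3% and 22.5% of all genes tested (45.7% in either direction). The median log2 change was 0.11 for the members and -0.02 for all genes tested, so the counts as a whole were near the background. No LSm ring gene fell (median of the 8, 1.88), and Lsm1, Lsm2 and Lsm8 did not pass the test. Of the 7 Sm genes 1 rose and 3 fell, of 4 U1 genes tested none rose and 2 fell, of 11 U2 genes 3 rose and 2 fell, and of 12 U4/U6 and U5 genes 3 rose and 2 fell. Of 2 U7 genes 1 rose, of the 4 other Lsm-named genes 1 rose and 1 fell, and the 1 minor spliceosome gene tested was not called.

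Lsm4 (ENSMUSG00000031848.15, chr8:70673248-70678752, plus strand of mm10) had 73.99, 62.4, 121.1, 135.1 and 82.7 CPM in the 5 embryos at 0 h, against a lowest, median and highest value of 0, 2.35 and 7.75 CPM in oocytes. No oocyte came near any 0 h embryo, and the change was 5.03 ± 0.40 (SE; edgeR adjusted p = 7.1e-09). Lsm6 had 102.03, 111.5, 127.8, 156 and 100 CPM at 0 h, against 5.71, 11.9 and 20.2 CPM in oocytes (3.18 ± 0.20, edgeR adjusted p = 7.91e-12). Lsm5 had 72.2, 49.04, 96.2, 93.1 and 48.8 CPM at 0 h, against 8.22, 11.9 and 19.8 CPM in oocytes (2.44 ± 0.22, edgeR adjusted p = 4.04e-09). For each of these 3 genes every 0 h embryo was above every oocyte. Lsm7 rose by 2.22, Lsm10 of the U7 particle by 2.00, Snrpd2 of the Sm ring by 1.80 and Lsm3 by 1.55 on the log2 scale. Sf3b5 of SF3b rose by 1.10, Sf3a3 of SF3a by 1.09 and Snrnp40 of U5 by 1.06.

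Snrnp70 (ENSMUSG00000063511.11, chr7:45376453-45395742, minus strand of mm10) encodes U1-70K, which binds U1 RNA directly and touches the SR proteins. It had 25.7, 23.2, 9.42, 6.60 and 5.23 CPM at 0 h, against 79.1, 99.1 and 105.6 CPM in oocytes. All 0 h values lay below all oocytes, a change of -2.74 ± 0.26 (edgeR adjusted p = 1.54e-08). Prpf31, which bridges U4/U6 and U5, had 1.19, 3.57, 8.75, 1.80 and 5.23 CPM at 0 h, against 7.32, 12.3 and 20.4 CPM in oocytes (-1.60 ± 0.41, edgeR adjusted p = 0.00285); these ranges overlapped. Snrpa, the A protein of U1, had 5.97, 14.3, 14.8, 8.40 and 10.5 CPM at 0 h, against 16.2, 26.4 and 36.1 CPM in oocytes (-1.29 ± 0.26, edgeR adjusted p = 0.000276), without overlap. Sf3a2 fell by 1.11, Prpf38a, a factor for spliceosome activation, by 0.89, Snrpd3 by 0.74, Snrpf by 0.62, Snrpg by 0.59, Lsm14b by 0.52 and Sf3b1 by 0.51 on the log2 scale.

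Cumulus and granulosa markers moved with this comparison: their sum had a median of 130 CPM at 0 h (33.0 to 714, 14 of 18 with counts) and 591 CPM in oocytes (97.2 to 1042, 15 of 18). Pgr, Amh and Foxl2 were at 0 in both groups, and Amhr2 at 0 h; their part in the result was not tested. In 1 fit of all 96 libraries 11 genes were called in place of 24.

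Because tails of stored transcripts are known to be set by sequences near the 3′ end, the last 100 bases of each gene's GENCODE transcript were searched for TTTTAT and TTTTAAT, the letters of the cytoplasmic polyadenylation element, on the transcript strand. They were found in 6 of 14 genes higher at 0 h (42.9%), 3 of 10 lower (30%) and 6 of 25 not called (24%), against 20.2%, 24.0% and 21.8% of all genes tested with the same calls. Lsm4, Lsm5 and Lsm6 held neither form in this window. The 30-base windows below show the element, in capitals, in Lsm3 and Lsm7, which rose, and in Snrnp70 and Snrpd3, which fell, so that both directions carried the same letters. They are transcript-strand sequences of GENCODE M21 (GRCm38), and the match is a description of letters only.
Lsm3: aaattaaatttgatgtttccttTTTTATta
Lsm7: tttgttttgttTTTTAATaaaattgcccat
Snrnp70: tagatttttttTTTTAATccggtcccttgg
Snrpd3: ctgtttggtttaTTTTATtgtattaataaa

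At 2 h, 3 LSm ring transcripts had fallen below their 0 h levels. Of 47 genes tested none was higher and 4 were lower: Lsm5, Lsm4, Lsm6 and Snrpe. Among all genes tested 4.25% were higher and 4% lower (8.25% in either direction), and the median change was -0.19 for the members and 0.02 for all genes. At an unadjusted p under 0.05, edgeR found 6 members higher and 12 lower. Unadjusted counts were not made over all genes, so no background stands beside them. DESeq2 with adjusted p called 2 members higher and 8 lower, beside 540 and 500 of all 8220 genes tested. Lsm5 had 25.1, 31.5, 43.2, 29.3 and 29.9 CPM at 2 h, each below each of the 0 h embryos given above, a change of -1.23 ± 0.23 (edgeR adjusted p = 0.0054). Lsm4 had 31.0, 58.5, 47.96, 48.4 and 37.4 CPM at 2 h, again below each 0 h embryo (-1.13 ± 0.24, edgeR adjusted p = 0.00846). Lsm6 had 64.7, 75.3, 113.5, 74.4 and 76.2 CPM at 2 h, and replicate 3 lay among the 0 h embryos (-0.62 ± 0.18, edgeR adjusted p = 0.04). Snrpe had 192, 187, 229, 207 and 176 CPM at 2 h, against 295, 293, 276, 305 and 257 CPM at 0 h, without overlap (-0.58 ± 0.12, edgeR adjusted p = 0.00907). Snrnp70 did not pass the test (0.48 ± 0.45, edgeR adjusted p = 0.546). In 1 fit of 81 libraries (all embryos but the morulae) no member was called (at an unadjusted p under 0.05, 3 higher and 1 lower). The Lsm6 call was lost without any one of 0 h replicates 2, 3 or 4 or 2 h replicates 1, 4 or 5. Without 2 h replicate 2, 8 members were called, and over all genes 996 of 8862 in place of 726 of 8804. Cumulus and granulosa markers summed to 999 CPM in that library against a 2 h median of 124.2. Their part in the counts was not tested.

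By 12 h, Lsm4, Lsm6 and Lsm5 had fallen further below their 0 h levels, and 3 of the 4 U1 genes tested, Snrnp70, Snrpa and Prpf39, were higher than at 0 h. Of 46 genes tested 7 were higher and 11 lower, beside 19.7% and 19.4% of all genes tested, with a median of -0.14 for the members and -0.02 for all genes. With library size alone as the scaling, which put the median of all genes at -0.29, 4 were higher and 17 lower. Of the 8 LSm ring genes 1 rose and 4 fell (median -1.17), of 4 U1 genes 3 rose and none fell (median 1.16), of 11 U2 genes 1 rose and 4 fell, of 10 U4/U6 and U5 genes 1 rose and 2 fell, and of 6 Sm genes 1 rose and none fell. Of the 4 other Lsm-named genes 1 fell, and none of the 2 U7 genes or the 1 minor spliceosome gene tested was called.

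Lsm4 had 0.998, 3.76, 1.63, 1.02 and 7.29 CPM at 12 h, below each 0 h embryo (-4.75 ± 0.44, edgeR adjusted p = 4.54e-07). Lsm6 had 6.99, 30.1, 16.3, 33.6 and 13.7 CPM at 12 h (-2.62 ± 0.34, edgeR adjusted p = 1.59e-05). Lsm5 had 19.0, 10.3, 13.9, 10.2 and 12.8 CPM at 12 h (-2.41 ± 0.29, edgeR adjusted p = 6.07e-06). All 3 genes lay below all 0 h embryos. Sf3b5 fell by 1.54, Sf3b2 by 1.38, Lsm12 by 1.29, Lsm3 by 1.14, Sf3a3 by 1.13, Prpf8, the scaffold of the catalytic centre, by 0.99, and Sf3a1 by 0.72 on the log2 scale.

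Snrnp70 went the other way. It had 101.8, 60.2, 75.9, 20.4 and 66.5 CPM at 12 h, of which replicate 4 alone lay within the 0 h range, a change of 2.22 ± 0.44 (edgeR adjusted p = 0.000645). Snrpa had 21.5, 31.99, 22.9, 38.7 and 24.5 CPM at 12 h, above each 0 h embryo (1.38 ± 0.35, edgeR adjusted p = 0.00437). Prpf38a had 85.4, 100.7, 96.3, 81.5 and 60.7 CPM at 12 h, against 39.98, 50.8, 35.0, 45.6 and 42.7 CPM at 0 h, without overlap (0.99 ± 0.22, edgeR adjusted p = 0.00198). Prpf39, associated with U1, rose by 0.95, Snrpd3 by 0.81, Lsm1 by 0.70 and Snrpb2 of U2 by 0.61. Snrnp70 was at its peak later, with medians of 127.99 CPM at 16 h and 140 CPM at 18 h, before medians of 25.3 CPM at 20 h and 24.0 CPM at 22 h. At 18 h the embryos whose titles end in b (replicates 5 to 9) had 140 to 214 CPM and the others (replicates 1 to 4) 57.9 to 80.7 CPM. At 16 h the titles ending in b (replicates 4 to 8) had 117.6 to 185 CPM and the others 87.5, 114.5 and 32.5 CPM. The height of this peak thus rests on the titles ending in b; what the letter stands for is not stated. All 20 h titles end in b, with 17.4 to 36.4 CPM. In 1 fit of the 81 libraries 10 genes were called between 12 h and 0 h, in place of 18.

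**Figure D2:**
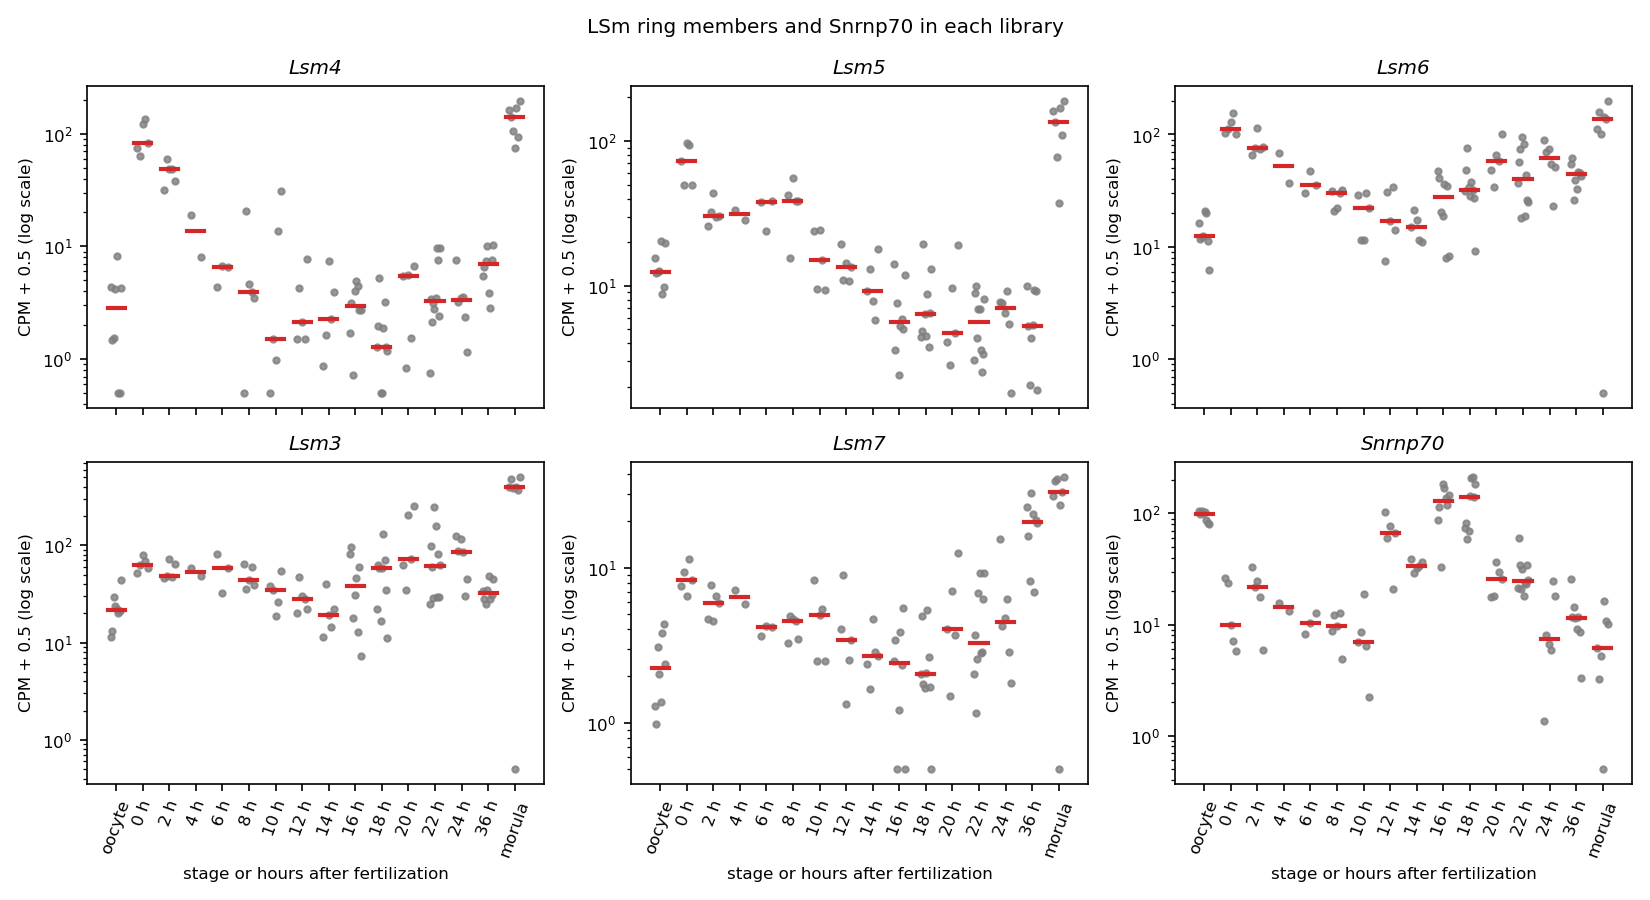
Each panel is 1 gene; points are single libraries, bars the group medians, the x axis the 16 groups and the y axis CPM + 0.5 on a log scale. Lsm4 reaches 62.4 to 135.1 CPM at 0 h and 73.7 to 196 CPM in morulae and is at most 9.75 CPM at 36 h, while Snrnp70 peaks at 16 h and 18 h. The 73.7 CPM stand for 2 counts in morula replicate 4.

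Between 12 h and 24 h the share of these genes that changed was near that of all genes. Of 51 genes tested 8 were higher at 24 h and 4 lower, beside 13.4% and 8.23% of all genes tested (21.6% in either direction), and the medians were -0.03 for the members and 0.05 for all genes. Of 8 LSm ring genes 3 rose and none fell, and of 5 U1 genes 1 rose and 2 fell. Of 6 Sm genes 1 rose, of 11 U2 genes 1 rose and 2 fell, of 12 U4/U6 and U5 genes 1 rose, and no gene of the minor spliceosome, the U7 particle or the other Lsm-named group was called. Snrpc (ENSMUSG00000024217.10, chr17:27838150-27851968, plus strand of mm10), the C protein of U1, which helps U1 recognise the start of the intron, had a lowest, median and highest value of 3.78, 8.78 and 73.5 CPM at 24 h, against 2.00, 3.76, 0.817, 1.02 and 9.63 CPM at 12 h. The ranges overlapped and the call was lost without any one of 6 libraries (2.66 ± 0.83, edgeR adjusted p = 0.0337). Prpf19, a ubiquitin ligase of the activated spliceosome, had 2.45, 4.22 and 11.7 CPM at 24 h, against 2.50, 0, 1.63, 1.02 and 1.75 CPM at 12 h (1.81 ± 0.62, edgeR adjusted p = 0.049), the only comparison in which it passed the filter. The Prpf19 call was lost without any one of 12 h replicates 1 to 5. Lsm6 had 22.4, 61.7 and 88.8 CPM at 24 h, overlapping the 12 h embryos (1.62 ± 0.43, edgeR adjusted p = 0.0161). Prpf18, which acts in the second step of splicing, rose by 1.54, Lsm3 by 1.504, Sf3b3 by 1.37, Lsm2 by 0.91 and Snrpg by 0.77. The calls of Sf3b3, Lsm2 and Snrpg were lost under 8, 7 and 12 of the alternatives.

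Snrnp70 had 0.858, 6.90 and 24.1 CPM at 24 h, and its 12 h embryos lay at or above 20.4 CPM (-2.68 ± 0.59, edgeR adjusted p = 0.00623). Snrpa1 of U2 had 32.9, 42.2 and 104.6 CPM at 24 h, against 276, 111.02, 252, 167 and 130 CPM at 12 h, without overlap (-1.71 ± 0.35, edgeR adjusted p = 0.00422). Prpf39 had 15.1, 26.4 and 40.2 CPM at 24 h, against 73.4, 53.6, 58.8, 46.9 and 100.96 CPM at 12 h, without overlap (-1.29 ± 0.30, edgeR adjusted p = 0.00905). Sf3a3 fell by 0.96. Lsm4 had 0.652, 2.83 and 7.15 CPM at 24 h and did not pass the test (0.03 ± 0.64, edgeR adjusted p = 0.98). Without the 2 embryos at 24 h whose titles end in b, 10 genes were higher and 12 lower, so the number depended on which embryos entered. Leaving out 12 h replicate 1 or 3 left 6 called and replicate 4 left 7.

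The late 2-cell embryo differed from the 24 h embryo in 25 of 50 genes tested, 12 higher and 13 lower, beside 29.1% and 23.2% of all genes tested. The medians were -0.12 for the members and 0.05 for all genes, so the count was near the background. The change ran both ways in the Sm, U1, U2, U4/U6 and U5, and LSm groups. Those that rose included Snrnp25 of the minor spliceosome, Snrpd2 and Snrpb of the Sm ring, and Snrpc of U1. Those that fell included Snrpb2 and Sf3b1 of U2 and Snrpd3 and Snrpd1 of the Sm ring. The Sm ring had 2 higher and 2 lower of 7, U1 3 and 1 of 5, U2 2 and 4 of 11, U4/U6 and U5 2 and 2 of 12, and the LSm rings 2 and 1 of 8. The U7 particle had none higher and 1 lower of 2, the minor spliceosome 1 higher and none lower of 2, and the other Lsm-named genes none higher and 2 lower of 3.

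Snrnp25 (ENSMUSG00000040767.10, chr11:32205415-32208984, plus strand of mm10), which belongs to the U11/U12 particle, had a lowest, median and highest value of 49.6, 171 and 213 CPM at 36 h, against 0.708, 4.19 and 26.2 CPM at 24 h (4.10 ± 0.63, edgeR adjusted p = 7.95e-05). Snrpd2 had 22.4, 49.2 and 111.8 CPM at 36 h, against 0.490, 1.24 and 15.3 CPM at 24 h (3.67 ± 0.66, edgeR adjusted p = 0.000239). Snrpc had 108.9, 172 and 211 CPM at 36 h, against the 24 h values above (2.84 ± 0.57, edgeR adjusted p = 0.000689). For all 3 the groups did not overlap, and 24 h replicates 1 and 4 were the highest and the second highest of their group for Snrpc, Snrnp25 and Snrpd2. Snrpb rose by 2.80, Sf3b6, the branch-site protein of SF3b, by 2.39, Lsm8, the subunit of the U6 ring alone, by 2.30, and Sf3b5 by 2.22 on the log2 scale. Snrpa rose by 2.06, Prpf4 of U4/U6 by 1.78 and Lsm7 by 1.77.

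Snrpb2 (ENSMUSG00000008333.12, chr2:143063039-143072853, plus strand of mm10), the U2B″ protein, had 36.7, 76.1 and 150 CPM at 36 h, against 378, 518 and 564 CPM at 24 h (-2.56 ± 0.25, edgeR adjusted p = 1.05e-06). Sf3b1 (ENSMUSG00000025982.13, chr1:54985169-55027481, minus strand of mm10), which contacts the branch-point duplex, had 58.4, 95.7 and 175 CPM at 36 h, against 336, 567 and 973 CPM at 24 h (-2.50 ± 0.26, edgeR adjusted p = 2.45e-06). Neither gene overlapped between the groups. Lsm14b, a protein of cytoplasmic mRNA granules, had 4.48, 7.15 and 17.7 CPM at 36 h, against 15.3, 21.1 and 105.8 CPM at 24 h (-2.37 ± 0.49, edgeR adjusted p = 0.000756), with overlap. Prpf6 fell by 2.27, Snrpd3 by 2.20, Sf3a1 by 2.15, Snrnp27 by 2.13, Snrpd1 by 1.78, Lsm11 of the U7 particle by 1.51 and Sf3b3 by 1.43. Lsm4 (1.06 ± 0.49, edgeR adjusted p = 0.0801) and Snrnp70 (0.26 ± 0.56, edgeR adjusted p = 0.715) did not pass the test.

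**Figure D3:**
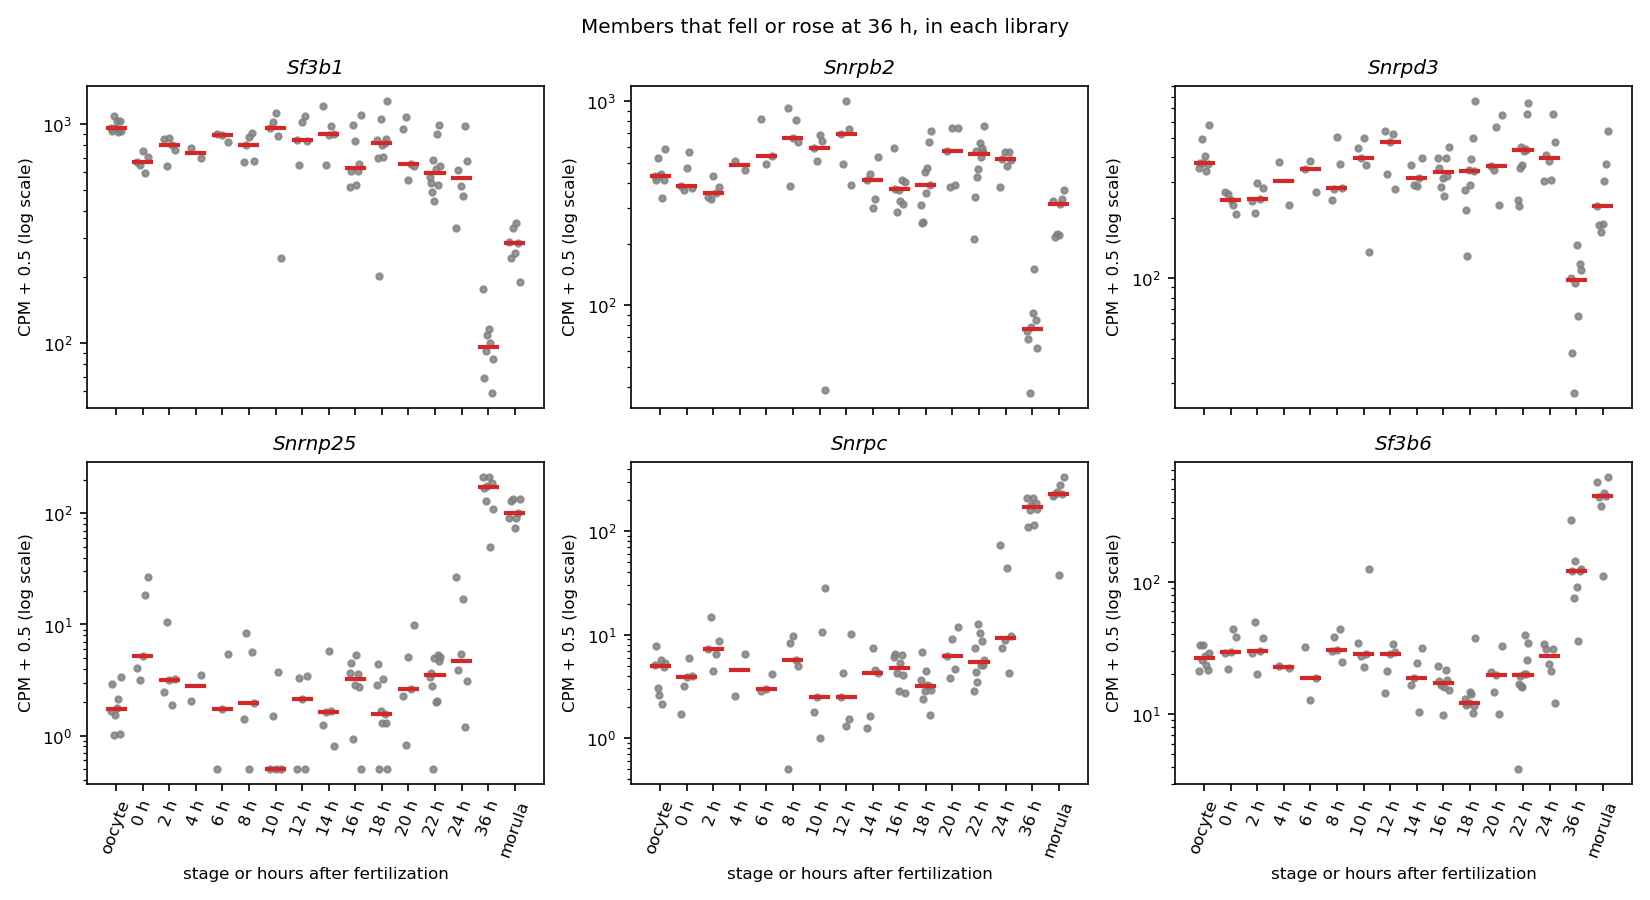
Each panel is 1 gene; points are single libraries, bars the group medians, the x axis the 16 groups and the y axis CPM + 0.5 on a log scale. Sf3b1, Snrpb2 and Snrpd3 are at medians of 95.7, 76.1 and 97.1 CPM at 36 h, and Snrnp25 and Snrpc reach medians of 171 and 172 CPM there.

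RefSeq promoters of 300 bases (250 before the transcription start and 50 after it, GRCm38.p6) were at hand for 44 of the 54 genes, 51 promoters in all. Both strands were searched for the ETS-type letters CCGGAAG, the NRF1-type letters (GCGC, any base, then TGCGC), the YY1-type letters AAGATGGCG, the CCAAT box and TATAAA. The ETS-type letters stood in 18 of 51 (35.3%), against 8.86% of all 32851 promoters, and the NRF1-type letters in 12 (23.5%), against 4.60%. YY1-type letters were in 4 (7.84% against 1.40%), CCAAT in 21 (41.2% against 37.4%) and TATAAA in 3 (5.88% against 13.6%). That background includes genes too low to be tested. Over the 8228 genes tested between 36 h and 0 h with a promoter, the ETS-type letters were in 20.6% and the NRF1-type letters in 11.8%, against 16 of 40 members (40%) and 10 of 40 (25%). Among the members the ETS-type letters were in 3 of 14 that were higher at 36 h than at 0 h and 8 of 18 that were lower, and the NRF1-type letters in 4 of 14 and 3 of 18. Promoters of genes that rose and of a gene that fell at 36 h are printed for comparison, on the strand of the gene, with matches to the searched letters of either strand in capitals. Snrpc (chr17:27839837-27840136, plus strand), Snrnp25 (chr11:32205165-32205464, plus strand), Snrpd2 (chr7:19149588-19149887, plus strand) and Sf3b6 (chr12:4817358-4817657, plus strand) rose, and Snrpb2 (chr2:143062819-143063118, plus strand) fell.
Snrpc: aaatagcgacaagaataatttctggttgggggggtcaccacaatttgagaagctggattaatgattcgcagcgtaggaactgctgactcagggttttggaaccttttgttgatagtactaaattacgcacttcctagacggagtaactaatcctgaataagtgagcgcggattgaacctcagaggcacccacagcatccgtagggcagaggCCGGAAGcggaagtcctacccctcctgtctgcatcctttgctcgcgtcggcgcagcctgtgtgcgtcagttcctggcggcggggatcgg
Snrnp25: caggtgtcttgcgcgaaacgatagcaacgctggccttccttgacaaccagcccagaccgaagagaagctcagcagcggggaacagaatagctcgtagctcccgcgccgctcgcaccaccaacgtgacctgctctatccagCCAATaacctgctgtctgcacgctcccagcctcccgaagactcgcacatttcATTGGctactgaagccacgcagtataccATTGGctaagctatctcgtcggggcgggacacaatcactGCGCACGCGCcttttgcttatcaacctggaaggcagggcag
Snrpd2: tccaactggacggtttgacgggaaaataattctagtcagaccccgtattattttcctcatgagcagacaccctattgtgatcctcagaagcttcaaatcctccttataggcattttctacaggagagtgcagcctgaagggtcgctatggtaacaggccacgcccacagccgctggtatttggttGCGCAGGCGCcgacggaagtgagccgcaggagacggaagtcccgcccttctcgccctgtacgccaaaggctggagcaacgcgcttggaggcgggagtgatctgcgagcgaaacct
Sf3b6: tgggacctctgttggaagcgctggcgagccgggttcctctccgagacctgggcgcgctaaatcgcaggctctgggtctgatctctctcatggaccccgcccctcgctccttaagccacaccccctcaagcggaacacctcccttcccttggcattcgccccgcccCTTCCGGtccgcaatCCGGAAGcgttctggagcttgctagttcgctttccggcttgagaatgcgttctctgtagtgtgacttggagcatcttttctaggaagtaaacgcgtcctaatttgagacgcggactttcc
Snrpb2: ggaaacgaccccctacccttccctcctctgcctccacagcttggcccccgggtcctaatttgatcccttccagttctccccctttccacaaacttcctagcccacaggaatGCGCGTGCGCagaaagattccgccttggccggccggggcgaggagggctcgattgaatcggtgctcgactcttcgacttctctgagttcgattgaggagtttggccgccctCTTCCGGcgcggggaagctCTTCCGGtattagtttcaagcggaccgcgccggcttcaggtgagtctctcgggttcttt
The capitals in Snrpd2 and the last run of capitals in Snrnp25 are the NRF1-type letters (the other runs in Snrnp25 are CCAAT), those in Snrpc and Sf3b6 the ETS-type letters, and Snrpb2 carries both kinds. The same letters thus stood in the windows of genes that moved in opposite directions; in Snrnp25 the NRF1-type letters lie in the last 50 bases, after the start.

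Over the whole span of the same cohort, 36 h against 0 h, 39 of 50 genes tested changed: 17 were higher at 36 h and 22 lower, beside 39.5% and 25.1% of all genes tested. The median was -0.19 for the members and 0.38 for all genes. U2 had 1 gene higher and 6 lower of 11, U1 had 3 higher and 1 lower of 5, the LSm rings 4 and 4 of 8, the Sm ring 3 and 2 of 7, and U4/U6 and U5 4 and 5 of 12. The U7 particle and the minor spliceosome each had 1 higher and 1 lower of 2, and the other Lsm-named genes none higher and 2 lower of 3. The 0 h embryos serve as controls in this comparison, in those of 2 h and 12 h, and as the tested embryos against oocytes, so that their values enter all 4.

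Snrpc had 108.9, 172 and 211 CPM at 36 h, against 1.19, 2.67, 3.36, 5.40 and 3.48 CPM at 0 h (5.86 ± 0.34, edgeR adjusted p = 1.48e-10), the largest change of any member between these stages. Snrnp25 had 49.6, 171 and 213 CPM at 36 h, against 3.58, 2.67, 4.71, 18.0 and 26.1 CPM at 0 h, without overlap (4.01 ± 0.50, edgeR adjusted p = 1.59e-06). Snrpa had 13.0, 113.9 and 188 CPM at 36 h, and its lowest embryo lay among the 0 h values (3.53 ± 0.46, edgeR adjusted p = 2.76e-06). Snrpb rose by 3.35, Prpf4 by 3.02, Lsm8 by 2.65, Prpf31 by 2.33, Sf3b6 by 2.14, Snrpd2 by 2.01 and Prpf38a by 1.92 on the log2 scale.

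Lsm4 had 2.36, 6.52 and 9.75 CPM at 36 h, far below each 0 h embryo (-3.71 ± 0.33, edgeR adjusted p = 2.81e-08). Lsm5 had 1.39, 4.79 and 9.38 CPM at 36 h (-3.52 ± 0.39, edgeR adjusted p = 3.3e-07). Lsm14b had 4.48, 7.15 and 17.7 CPM at 36 h, against 109.2, 99.9, 115.04, 68.4 and 52.3 CPM at 0 h, without overlap (-3.25 ± 0.33, edgeR adjusted p = 1.34e-07). Prpf6 fell by 3.03, Snrnp27 by 2.56, Sf3b1 by 2.56, Sf3a3 by 2.46, Sf3a1 by 2.46, Snrpb2 by 2.22 and Lsm11 by 2.18. Snrnp70 had 2.79, 11.02 and 25.2 CPM at 36 h and did not pass the test (-0.09 ± 0.48, edgeR adjusted p = 0.884).

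In morulae 30 of the 50 genes tested were higher than at 36 h and 6 lower, beside 28.2% and 43.5% of all genes tested (71.7% in either direction), and the median change was 0.98 for the members against -0.55 for all genes. Without morula replicate 4, 33 of 51 were higher and 4 lower, beside 30.5% and 42.3% of all genes (72.8% in either direction). The split depended on the scaling: with DESeq2's size factors 25 were higher and 9 lower (2737 and 5447 of all 11216 genes), and the DESeq2 test gave 25 higher and 9 lower of 53 (3640 and 8685 of all 21350 genes). The Sm ring had 6 higher and none lower of 7 (median 1.82), U2 9 and 1 of 11 (median 1.61), the LSm rings 7 and 1 of 8 (median 1.88), and U4/U6 and U5 5 and 2 of 12. U1 had 2 higher and none lower of 5, the U7 particle none higher and 1 lower of 2 and the other Lsm-named genes 1 and 1 of 3, and neither of the 2 minor spliceosome genes tested was called.

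Lsm5 had a lowest, median and highest value of 36.9, 134.9 and 190 CPM in morulae, against 1.39, 4.79 and 9.38 CPM at 36 h (4.71 ± 0.40, edgeR adjusted p = 4.8e-10). Lsm4 had 73.7, 141 and 196 CPM in morulae, against 2.36, 6.52 and 9.75 CPM at 36 h (4.54 ± 0.35, edgeR adjusted p = 1.45e-10). Lsm12 had 36.9, 230 and 302 CPM in morulae, against 3.48, 16.4 and 25.7 CPM at 36 h (3.93 ± 0.36, edgeR adjusted p = 1.45e-09). Each morula was above each 36 h embryo for these 3 genes. The lowest values are those of morula replicate 4, from 1 count of Lsm5, 2 of Lsm4 and 1 of Lsm12. Without that library the changes were 4.89, 4.71 and 4.15. Lsm3 rose by 3.59, Snrpb by 3.05, Snrnp200, the helicase that unwinds U4 from U6, by 2.62, and Snrpa1 by 2.34. Snrpd2 rose by 2.34, Sf3b4 by 2.07 and Snrpd1 by 2.05.

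Lsm14a, another protein of cytoplasmic mRNA granules, had 13.8, 32.1 and 221 CPM in morulae, against 138.99, 225 and 335 CPM at 36 h (-2.47 ± 0.38, edgeR adjusted p = 3.09e-06). The overlap was due to morula replicate 4 alone, and without it the change was -2.54. Lsm10 had 0, 6.83 and 20.9 CPM in morulae, against 30.7, 62.7 and 83.8 CPM at 36 h (-2.46 ± 0.42, edgeR adjusted p = 1.35e-05), without overlap. Lsm1, the subunit that sets the decay ring apart from the U6 ring, had 51.5, 72.2 and 110.6 CPM in morulae, against 130, 211 and 361 CPM at 36 h (-1.57 ± 0.27, edgeR adjusted p = 1.8e-05), without overlap. Prpf38b fell by 1.04, Sf3a2 by 1.04 and Prpf18 by 0.73. Each of these 3 calls was lost when any one of several libraries was left out. The Sf3a2 call was lost without any one of the 7 morulae or of 36 h replicates 4, 5, 7 and 8, the Prpf18 call without morula replicate 1, 2, 3, 4, 6 or 7 or 36 h replicate 1, 2 or 3, and the Prpf38b call without morula replicate 1, 2, 6 or 7 or 36 h replicate 2. Snrnp70 had 0, 5.63 and 15.8 CPM in morulae and did not pass the test (-0.42 ± 0.47, edgeR adjusted p = 0.426).

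**Figure D4:**
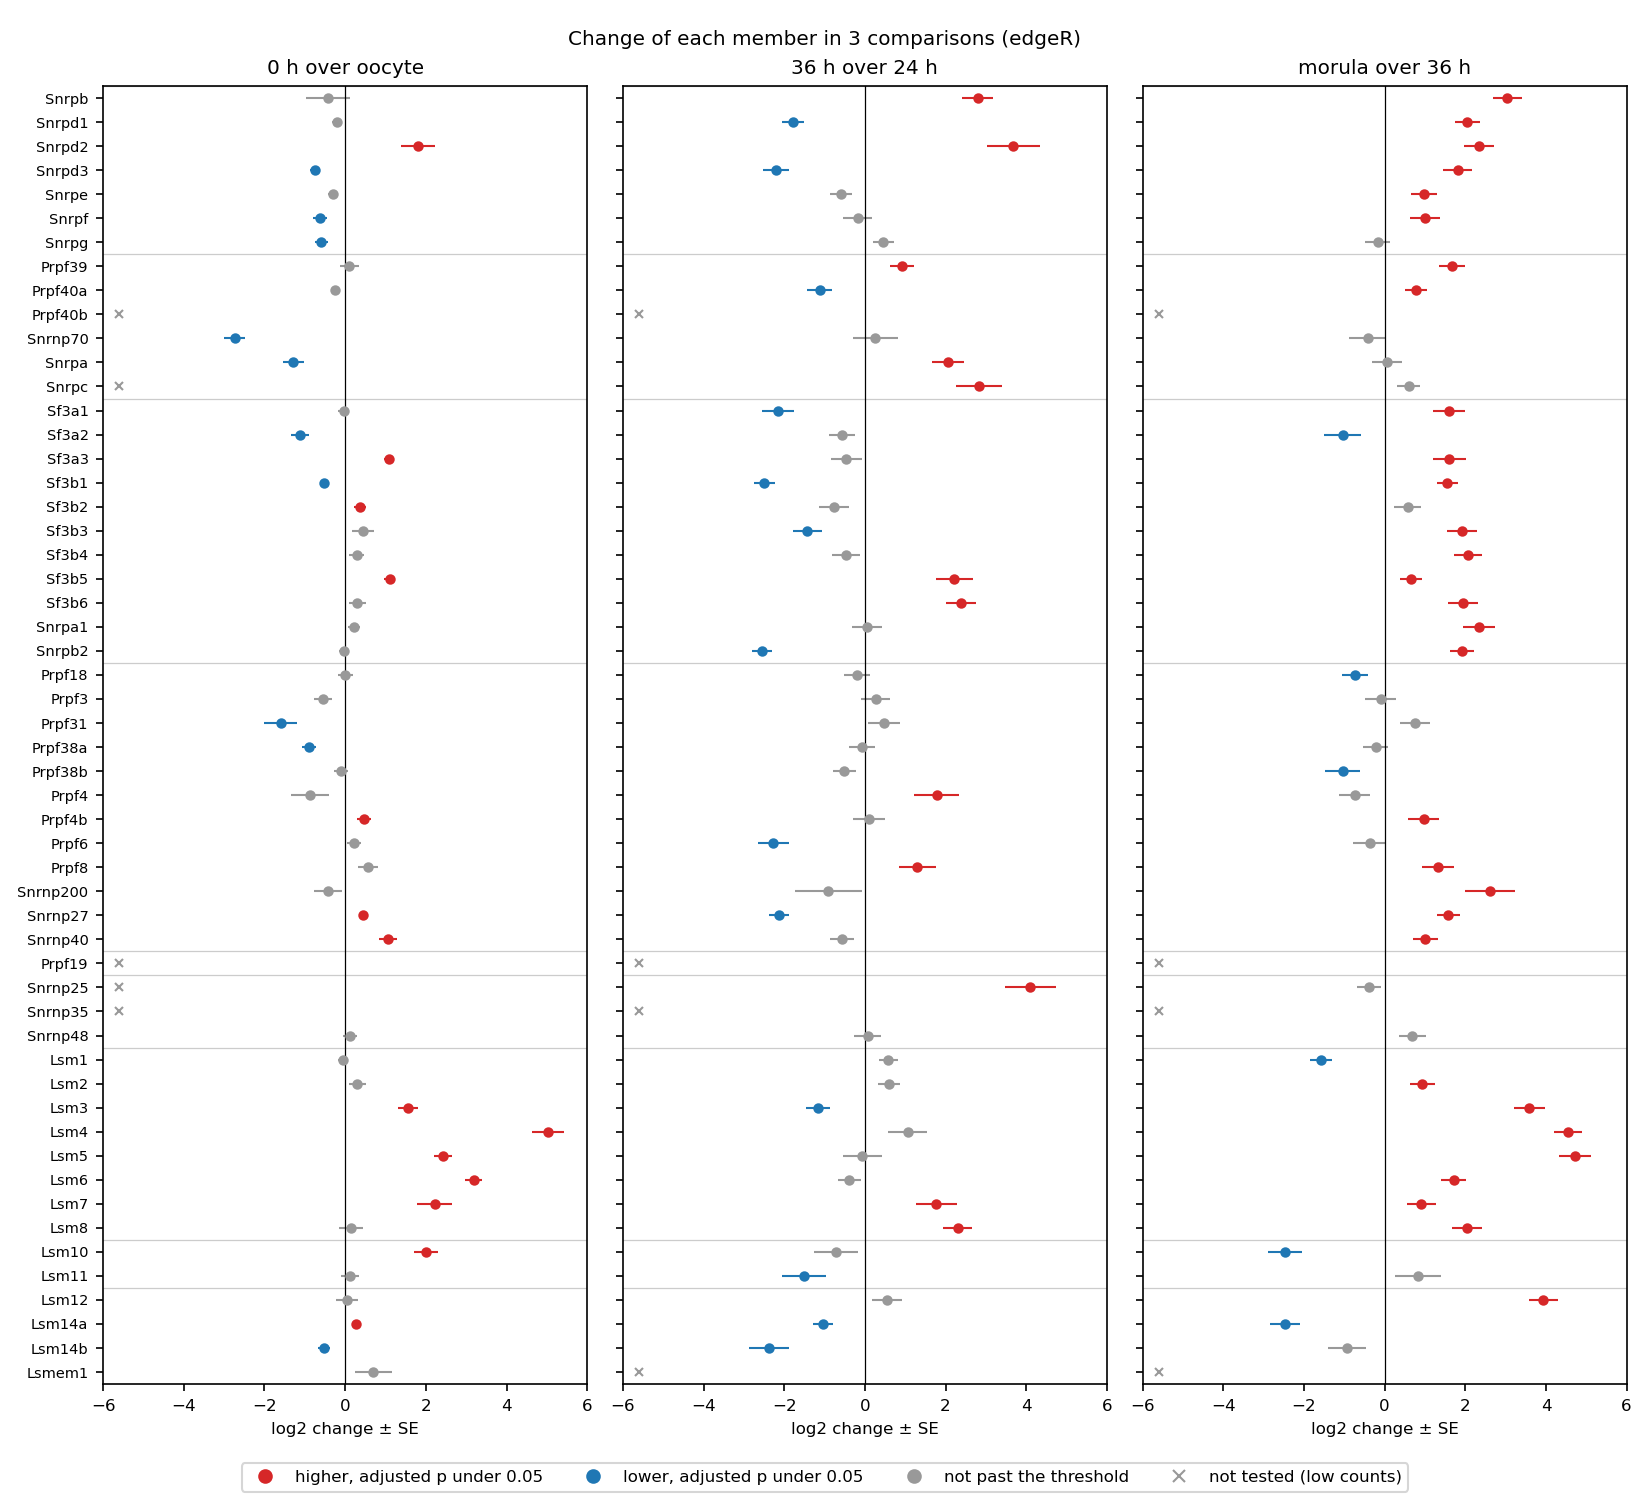
Each row is 1 of the 54 genes, grouped by role; the x axis is the log2 change with its SE for 0 h over oocytes, 36 h over 24 h and morulae over 36 h, red and blue mark calls higher and lower, and crosses mark genes not tested. In the morula panel 30 points are red and 6 blue.

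**Figure D5:**
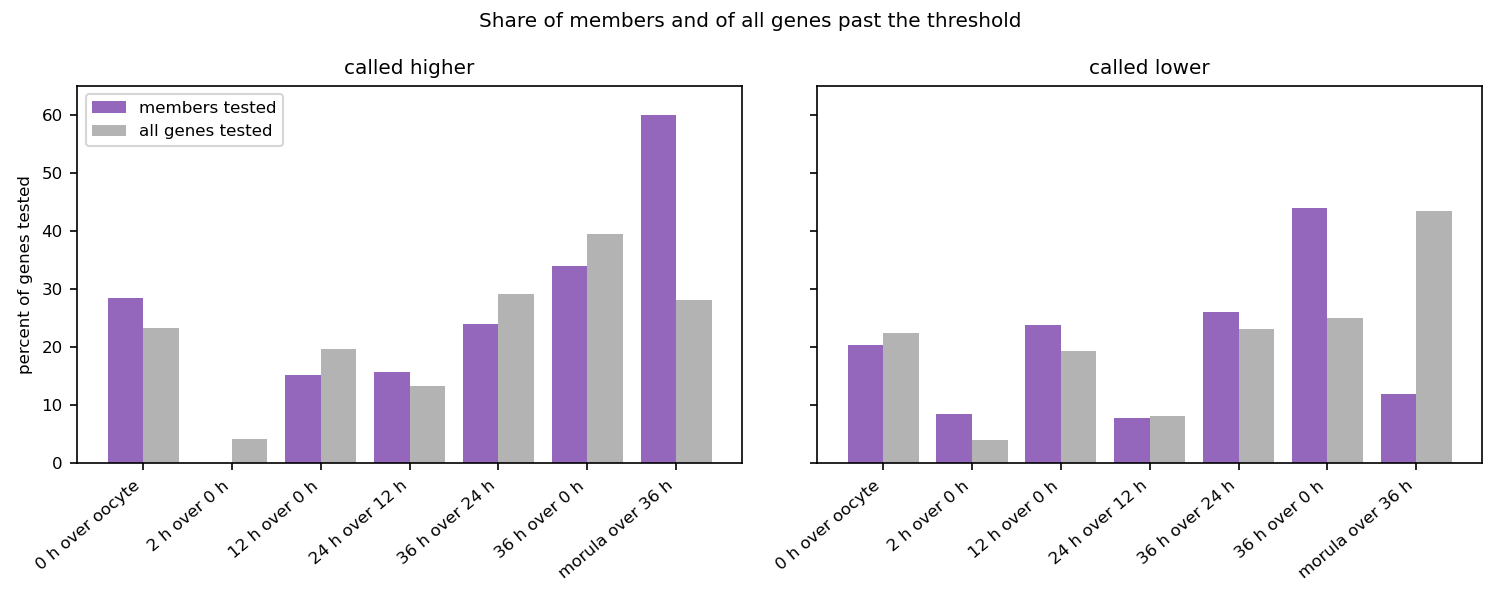
Bars give the percent of members tested and of all genes tested that were called higher (left) or lower (right) in each of the 7 comparisons. In morulae 60% of the members tested were higher, against 28.2% of all genes.

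The proteins of a ring are needed in equal number, so the spread of transcript levels within a ring was described as well, by a measure chosen after the values were seen. In each library the level per kb of the highest of the 7 Sm genes was divided by that of the lowest. This ratio had a median of 668 at 24 h (43.5 to 1758 over 6 embryos), 10.6 at 36 h (6.79 to 18.0 over 8) and 5.27 in morulae (3.38 to 7.20 over the 6 with all 7 genes detected). Stages before 24 h had medians from 74.2 at 0 h (32.7 to 89.1 over 4 embryos) to 696 at 4 h (2 embryos), with 263 at 22 h. The 24 h value thus stood near the top of that span, and the narrowing was smaller when counted from 0 h. Snrpd2, the lowest by median at 24 h, had 2, 4, 5 and 2 counts in replicates 2, 3, 5 and 6, and more in replicates 1 and 4. Each 36 h embryo held at least 48 counts of Snrpd2. The highest gene by median at both stages was Snrpe, whose level is uncertain. The size of the 24 h ratio is therefore imprecise, although the 24 h and 36 h ranges did not overlap. Libraries with a ring gene at 0 counts gave no ratio. At every stage before 36 h the lowest by median was Snrpd2 or Snrpb, and the highest Snrpe or Snrpd1. The rule left out Snrpn, so its transcripts do not enter the Sm ratio. By median, Snrpn stood at 46.5 CPM and Snrpb at 0.774 CPM in 6 h embryos, the group with the lowest Snrpb. The order was reversed in morulae (Snrpn 142 CPM, Snrpb 449 CPM). How far Snrpn could serve in place of Snrpb was not tested. In oocytes the medians were 1.47 CPM per kb for Snrpd2 and 248 for Snrpe. For the LSm2 to LSm8 ring the ratio was 16.9 to 48.5 in the 6 of 8 oocytes with all 7 genes detected, 16.3 to 50.5 at 0 h, 6.37 to 22.7 at 36 h and 6.15 to 13.7 in 6 of 7 morulae. For the 6 SF3b genes the ratio was larger at 36 h than at 24 h by median, with medians of 80.1 in oocytes, 12.1 at 24 h, 46.4 at 36 h and 43.3 in morulae. A transcript ratio says nothing of protein already stored.

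Genes that work with these proteins were counted from 4 further lists, to be read against the shares of all genes tested: 29.1% higher and 23.2% lower at 36 h against 24 h, 28.2% and 43.5% in morulae against 36 h, 23.3% and 22.5% at 0 h against oocytes, and 19.4% lower at 12 h against 0 h. Of the other snRNP subunits and assembly factors, 8 were higher and 4 lower of 19 at 36 h against 24 h, and 10 higher and 2 lower in morulae against 36 h. Gemin5, which recognises the RNA for Sm ring assembly, rose by 3.98 at 36 h and Wdr77, of the methylosome that modifies Sm proteins, by 3.56. Smn1, the hub of the assembly complex, had 93.2 ± 22.9 CPM at 36 h and 348 ± 201 CPM at 24 h (SD, n = 8 and 6) and fell by 1.82. In morulae Gemin2 rose by 4.56 and Txnl4a of U5 by 3.46, while Ddx23 fell by 3.26. At 0 h against oocytes 3 of 15 in this list were higher and 3 lower, with Snu13, a U4 protein, up by 1.52 and Eftud2 down by 1.53. Of the SR proteins and U2AF, 13 were higher and 2 lower of 19 in morulae, with Tra2a up by 3.81, Srsf6 by 3.34 and Srsf9 by 3.10, and Srsf4 down by 1.41. In this list 6 were higher and 4 lower of 17 at 0 h against oocytes, with U2af1 up by 1.54 and U2af1l4 down by 1.62. Of the spliceosomal helicases and Prp19-associated proteins, 12 were higher and 6 lower of 26 in morulae, 8 and 6 of 25 at 36 h against 24 h, and 4 and 8 of 21 at 0 h against oocytes. There Ddx41 rose by 2.05, and Plrg1 fell by 1.08 and Ctnnbl1 by 0.95. Of the other minor spliceosome proteins, 3 were higher and 1 lower of 7 in morulae, with Zmat5 up by 4.67, and all 4 tested were lower at 12 h than at 0 h.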

How the data were processed

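Single oocytes and embryos were sequenced with SMART-Seq v4 and Nextera XT, per the labels' protocols, and the submitters' processing notes name Trimmomatic 0.39, STAR, featureCounts and the mm10 build. The deposited table held estimated counts per gene (28.4% of non-zero values were not whole), as made by the authors, for 96 libraries. They were rounded to whole counts, whereas whole counts had been assumed when the tests were planned. The 873 rows of repeats were left out. Of 55401 gene rows, 55141 matched a GENCODE M21 symbol. No pair of libraries was identical.

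Groups came from the source labels. The members and gene lists were chosen with earlier results of these data known. For each of 7 comparisons the libraries of the 2 groups alone were fitted across all genes with edgeR 4.0.16 in R 4.3.3 (filterByExpr, TMM scaling, trended dispersion, robust quasi-likelihood F test, two-sided, Benjamini-Hochberg adjustment over all genes tested, threshold 0.05); the SE is the absolute log2 change divided by the square root of F. The test was checked on simulated data. Levels are CPM scaled with TMM factors estimated once over the 96 libraries, and levels per kb use merged GENCODE exons. In each comparison up to 10 members higher and 10 lower were named by size of change, the first 3 of each with values by library, and Lsm4 and Snrnp70 always. Lists were described by counts and medians.

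Depth sets the precision: a single count is a larger share of a shallow library, and morula replicate 4, with 10378 counts, gives 0 for many members that other morulae detect. Alternatives were DESeq2 1.42.0, its size factors, library size alone, no filter, counts cut down to the whole number below, 1 fit of all libraries of the cohort, a block for the number in the title, and leaving out each library. Tables and figures were made with Python 3.11.15, pandas 2.3.3 and matplotlib 3.10.9. Promoters are RefSeq's for GRCm38.p6; in 36 of 44 members the end of the promoter was found in the first part of the GENCODE transcript.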

Additional observations from a re-analysis of the deposited data

Results flagged for a closer look

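Groups of 4 to 10 libraries were searched for 1 library far from the rest, by Dixon's ratio, for 91 sets of values of the members shown by library, and 8 stood apart; chance flags about 1 in 20 such sets. The values are given without explanation. Among morulae, replicate 4 was apart for Lsm12 (36.9 CPM, the lowest) and for Lsm14a (221 CPM, the highest), and it is the library of 10378 counts. At 36 h, replicate 6 had the highest Lsm14b (17.7 CPM), at 24 h replicate 1 the highest Snrpd2 (15.3 CPM), and at 22 h replicate 2 the highest Snrnp70 (59.8 CPM). At 8 h, replicate 2 had the highest Lsm4 (20.0 CPM), and the same library had a cumulus and granulosa marker sum of 2269 CPM. At 2 h, replicate 3 had the highest Lsm6 (113.5 CPM). At 24 h, replicate 5 had the highest summed level of the 54 genes (6701 CPM).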

How the results depend on the processing

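No call changed direction under any alternative. Called under every alternative that tested them were 9 of the 24 genes for 0 h against oocytes, 0 of 4 for 2 h, 8 of 18 for 12 h and 31 of 39 for 36 h against 0 h, 5 of 12 for 24 h against 12 h, 20 of 25 for 36 h against 24 h, and 25 of 36 for morulae. An alternative in which a gene was not tested did not count as a loss. One fit of all libraries gave 11 calls for 0 h against oocytes, 0 for 2 h and 10 for 12 h against 0 h. Over all genes it gave 1601, 1 and 1620 calls in place of 4371, 726 and 3206. These fits included 10 h replicate 5, and the cause of the difference was not tested. DESeq2 gave 10 for 2 h (1040 of all genes in place of 726). For 24 h against 12 h, 22 genes were called without titles ending in b (4068 of all genes in place of 2397). For morulae, all genes called numbered 16826 without the filter, 12325 by DESeq2 and 13219 in the fit of 96 libraries, in place of 8045. Leaving out each library gave 22 to 25 calls for 0 h against oocytes, 3 to 8 for 2 h, 15 to 23 for 12 h, 6 to 16 for 24 h against 12 h, 24 to 27 for 36 h against 24 h, 36 to 39 for 36 h against 0 h and 31 to 37 for morulae. With the number in the title as a replicate block, the counts in the order of the comparisons were 21, 5, 17, 20, 23, 34 and 28 (morulae 25 higher and 3 lower); same-numbered libraries deviated together with correlations of -0.18 to 0.15, at most 2 libraries of a comparison correlated best with their own number, and the numbers are not taken to pair the embryos. Scaling by library size alone put the median of all genes in morulae at -0.78 and DESeq2's size factors at -0.88, against -0.55; the members stood 1.56 and 1.57 above it, against 1.53. Depth limits genes of a few CPM (Prpf19, Snrnp35, Prpf40b), where 0 counts do not show absence.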
